A study of Mus musculus with 24 samples.

Results

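The 10 genes described here, Msx1, Msx2, Pax9, Barx1, Lhx6, Lhx8, Pitx1, Prrx1, Prrx2 and Twist1, are transcription factors that mark or pattern the mesenchyme of the developing tooth. They were taken by name from a table of 56748 mouse genes, after gene identifiers had been matched to symbols, and all 10 were found there, each under 1 identifier. The comparison asked which of these tooth genes each side of the tooth germ kept when it was grown outside the embryo. Positions of genes are those of the deposited table (Ensembl 107, GRCm39). Dental mesenchyme of the mandibular first molar of ICR mice was sequenced in 24 RNA libraries, 3 in each of 8 groups.

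Undivided mesenchyme was taken at the cap stage (E13, Cap-W) and the bell stage (E15, Bell-W). At both stages the germ was also split with a fine needle into a lingual (tongue-side) part and a buccal (cheek-side) part, giving Cap-L, Cap-B, Bell-L and Bell-B. Further cap-stage parts of either side were grown in vitro for 2 days, giving Cap-L+2D and Cap-B+2D. The labels name no transgene, deletion or agent for any group. Mesenchyme was freed from each part with dispase II. The study's methods pool embryos from several litters and name both triplicates and 2 biological replicates, so it is not known which libraries share animals, and p-values measure only the spread between these libraries, which may be technical.

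Dental mesenchyme derives from the cranial neural crest, and signals from the overlying epithelium switch on a set of homeobox and related genes in it. Msx1 and Pax9 act together in this mesenchyme to keep the growth factor Bmp4 on, and teeth of mice that lack either gene stop at the bud stage. Barx1 marks the molar field, Lhx6 and Lhx8 mark the oral side of the first arch, Pitx1 marks the mandibular arch, and Prrx1, Prrx2 and Twist1 are general factors of cranial mesenchyme.

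Upstream sequences of 3 members are shown because the results turn on them: Msx1 and Msx2 are paralogs that moved in opposite directions in the cultured lingual part, and Pitx1 had the most negative change of the 10 from cap to bell stage in both parts. Each is the run of 250 bases just before the start of the canonical transcript in the GENCODE M39 annotation of GRCm39, written 5′ to 3′ on the gene's strand, with matches to the motifs named after them in capitals. Msx1 spans chr5:37981929-37982178, Msx2 spans chr13:53627111-53627360 and Pitx1 spans chr13:55979239-55979488, all on the minus strand, and none of them overlaps an exon counted in the deposited table. The Msx1 window overlaps an exon of the noncoding gene model Gm72191 in GENCODE M39, and the Pitx1 window lies inside the span of Pitx1 itself, downstream of the start of a longer transcript.
Msx1: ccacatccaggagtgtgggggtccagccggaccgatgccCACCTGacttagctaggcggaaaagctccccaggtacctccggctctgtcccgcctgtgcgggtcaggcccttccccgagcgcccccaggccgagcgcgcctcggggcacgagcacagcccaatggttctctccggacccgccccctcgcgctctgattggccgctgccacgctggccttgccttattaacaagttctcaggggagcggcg
Msx2: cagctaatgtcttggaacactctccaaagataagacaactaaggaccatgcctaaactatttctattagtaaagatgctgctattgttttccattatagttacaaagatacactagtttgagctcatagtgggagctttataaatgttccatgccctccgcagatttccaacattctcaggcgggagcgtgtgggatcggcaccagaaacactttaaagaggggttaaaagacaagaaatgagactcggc
Pitx1: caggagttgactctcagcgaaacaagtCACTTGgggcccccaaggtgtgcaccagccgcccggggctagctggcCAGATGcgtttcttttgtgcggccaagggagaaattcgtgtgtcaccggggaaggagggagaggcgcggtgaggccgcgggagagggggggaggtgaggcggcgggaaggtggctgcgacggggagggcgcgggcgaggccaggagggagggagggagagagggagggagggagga

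Motifs of 4 kinds were searched on both strands: the homeodomain core TAATTA, the bicoid-type site TAATCC, the E-box CANNTG and the TCF site CTTTGA, of which none overlapped another in these windows. The E-box was found once before Msx1 and in 2 places before Pitx1, and the window before Msx2 held none of the 4. Over windows of the same length before 21770 protein-coding genes, 64.8% held an E-box, 14.1% a TCF site, 7.0% a bicoid-type site and 5.2% a TAATTA core. The windows of the paralogs also differed in base composition, with 68.4% G and C before Msx1 and 41.6% before Msx2, against a median of 53.2% over all windows. These matches are a description of the letters only.

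Counted read pairs numbered from 20581720 to 39266497 in a library. Levels are given as normalized CPM, which are counts per 1000000 read pairs after edgeR's TMM scaling, and every member lay above the floor of 3 counts, which came to between 0.0764 and 0.146 CPM, in all 24 libraries. The lowest count of any member was 35 read pairs, for Msx2. Replicate 1 of Cap-W and replicate 3 of Bell-W stood apart from the other libraries of their groups: the chi-square of counts over genes per degree of freedom was 124 to 161 between Cap-W replicate 1 and the others and 7.89 between those others, and 55.0 to 61.8 against 12.8 in Bell-W. Within the groups of the parts and cultures it ran from 1.32 in Cap-B to 9.84 in Cap-L, where counting error alone gives about 1. Cap-B libraries, at 1.32 to 1.49, thus differed by little more than counting error. In bulk samples such as these, fewer cells of a type and less RNA per cell cannot be told apart.

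Markers of other cell types were present and moved with the groups. Summed over 8 skeletal muscle markers, the level was 17.1 to 17.8 normalized CPM in Cap-L, 172 to 186 in Cap-B, 261 to 279 in Cap-L+2D and 2951 to 3179.8 in Cap-B+2D. Over 8 dental epithelium markers it was 431 to 476 in Cap-L, 308 to 322 in Cap-B, 305 to 335 in Cap-L+2D and 86.7 to 87.3 in Cap-B+2D, where Shh had no read pair in any library, and it reached 1851 in Bell-W replicate 3, against 449 and 531 in the other Bell-W libraries. The buccal cultures thus had the highest muscle and the lowest epithelium marker sums of all groups. The 6 mesenchyme markers, collagens among them, summed to 10426 to 11067 in Cap-L and 13600.4 to 14173 in Cap-B, and to 27764 to 30703 and 23791 to 26029.7 after culture, with 6114 to 6733 in Cap-W and 12483 to 13844 in Bell-W. All 6 had reads in every group. In the cultures all 8 muscle markers were called higher on both sides, 5 of 8 epithelium markers were lower in the lingual and 7 of 8 in the buccal cultures, and 5 of 6 osteoblast markers were higher on both sides. All 6 endothelium markers were lower in the buccal culture, where 1 was lower and 1 higher in the lingual one, and all 6 erythroid markers were lower on both sides. Of 5 Schwann cell markers 4 were lower on both sides, but Erbb3 was called higher in the buccal culture, where the list summed to 96.0 to 99.2 against 58.8 to 62.6 CPM in Cap-B, and macrophage markers were higher, 6 of 6 and 5 of 6. Of 5 cartilage markers 2 were called higher on each side, and 1 lower in the lingual part. Among all genes tested, 19.6% were called higher and 15.9% lower in the lingual culture, and 17.9% and 16.6% in the buccal one. The part of these markers in the results for the 10 members was not tested.

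**Figure D1:**
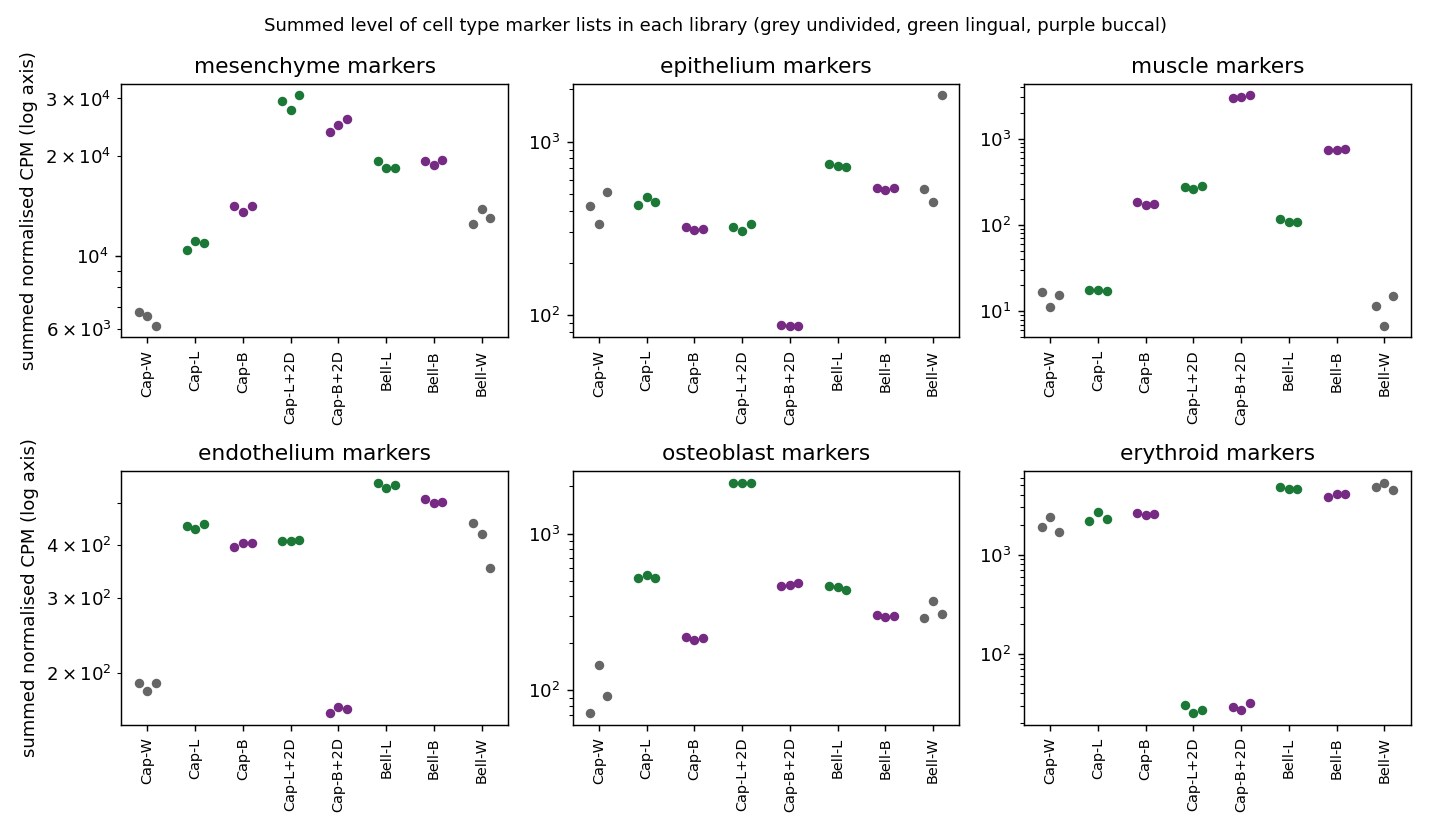
Summed normalized CPM (log axis) of 6 lists of cell type markers in each of the 24 libraries, by group; each point is 1 library, grey for undivided, green for lingual and purple for buccal mesenchyme. Cap-B+2D is the highest group for muscle markers, at 2951 to 3179.8, and the lowest for epithelium markers, at 86.7 to 87.3.

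After 2 days of culture Msx1 and Lhx6 fell on both sides, and in the lingual part Lhx8 fell as well and Msx2 rose. A gene was called when its adjusted p was under 0.05 and its absolute log2 fold change over 0.5, by the quasi-likelihood test of edgeR, with p-values adjusted by the method of Benjamini and Hochberg over all genes tested. Log2 changes are fitted log2 fold changes, given with their standard error (SE). In the lingual part (Cap-L+2D over Cap-L), 1 of the 10 members was called higher, Msx2, against 19.6% of all genes tested, and 3, Msx1, Lhx6 and Lhx8, were called lower, against 15.9%. In the buccal part (Cap-B+2D over Cap-B), 0 were called higher, against 17.9% of all genes, and 2, Msx1 and Lhx6, were called lower, against 16.6%. None of the 10 had a positive log2 fold change in the buccal part, DESeq2 called the same number, and without TMM scaling 4 were called lower, Prrx1 and Twist1 besides. Among all genes, 4392 were called lower in the buccal part without TMM scaling, against 3651 with it. The median log2 fold change of the members was 0.03 in the lingual part, where that of all genes was -0.03, and -0.38 in the buccal part, where that of all genes was -0.02. With an adjusted p under 0.05 as the sole criterion, 9 members differed on the lingual side, 4 of them lower, where 65.9% of all genes did, and 8 in the buccal part, all 8 lower, where 67.2% did.

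The change in culture was then compared between the sides in 1 fit, as the buccal-over-lingual difference after culture minus that at the cap stage. At an adjusted p under 0.05, 1 member shifted toward the buccal side, Lhx8, where 16% of all genes did. The 8 others that passed shifted toward the lingual side, where 19.5% of all genes did, and Lhx6 did not pass except without TMM scaling (adjusted p = 0.0459). The shifts toward the lingual side ran from -0.25 for Pax9 to -2.31 for Msx2 on the log2 scale. With all 24 libraries in 1 fit, whose spread then includes the undivided groups, 5 members passed, and Pax9, Barx1, Pitx1 and Prrx1 did not.

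**Figure D2:**
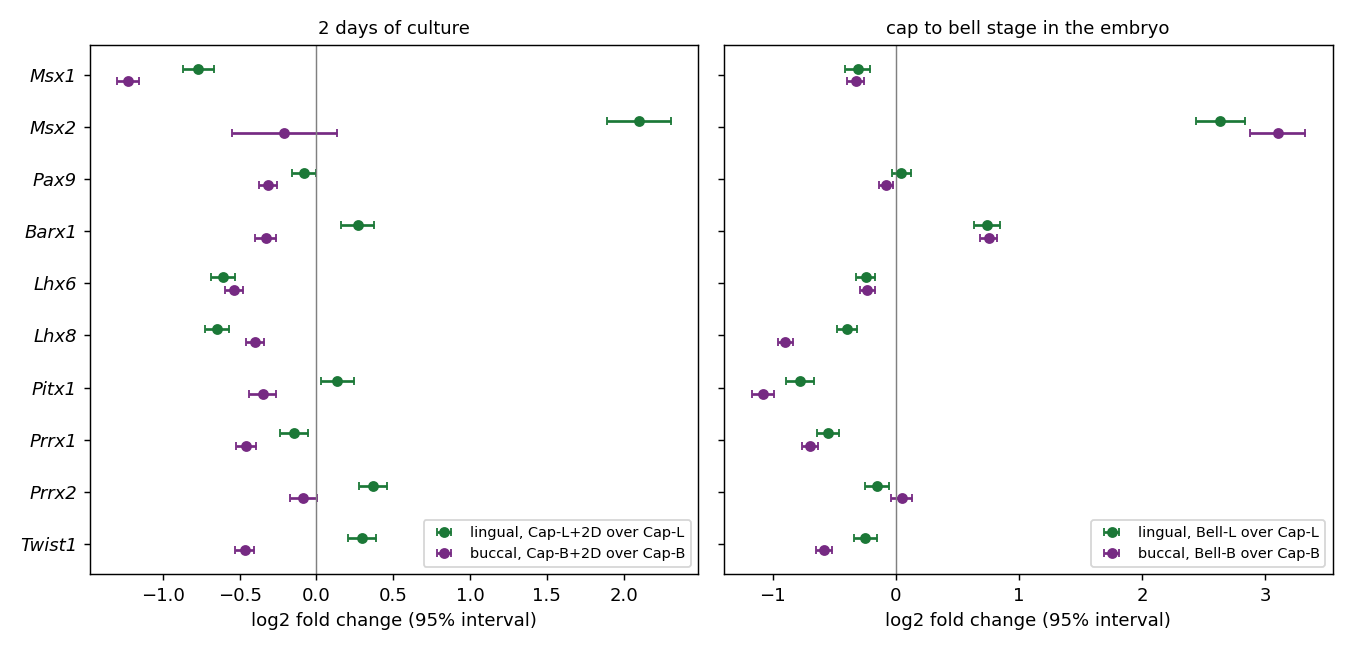
Log2 fold changes of the 10 members with 95% intervals, for 2 days of culture (left) and for the step from cap to bell stage in the embryo (right), with lingual comparisons in green and buccal ones in purple. In culture the buccal points lie to the left of the lingual ones for Msx1, Msx2, Pax9, Barx1, Pitx1, Prrx1, Prrx2 and Twist1, and Msx2 rose by 2.10 in the lingual part.

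Msx1 (ENSMUSG00000048450, chromosome 5, 37977829 to 37981927 on the minus strand), the homeobox gene that sustains Bmp4 in dental mesenchyme, fell in culture on both sides, and further on the buccal side. Its normalized CPM was 428, 509 and 438 in Cap-L and 272, 262 and 269.8 in Cap-L+2D. On the buccal side it went from 493, 473 and 483 in Cap-B to 202, 208 and 217 in Cap-B+2D. The cultured libraries lay below all uncultured ones on both sides, and the cultured buccal libraries lay below the cultured lingual ones. The lingual change was a 1.70-fold fall (log2 change -0.77, SE 0.053, adjusted p = 2.3e-12), and the buccal change a 2.34-fold fall (log2 change -1.23, SE 0.035, adjusted p = 9.43e-25, edgeR). The changes differed between the sides (interaction -0.47, 95% interval -0.61 to -0.33, edgeR adjusted p = 3.21e-06).

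In the embryo Msx1 did not differ between the sides by the call rule at either stage. Bell libraries of the parts held 354 to 383 normalized CPM in Bell-L and 368 to 402 in Bell-B, below both cap groups but above both cultures. From cap to bell the log2 fold change was -0.31 (adjusted p = 2.29e-05) in the lingual and -0.33 (adjusted p = 1.24e-09) in the buccal part by edgeR, under the fold limit on both sides. Against the bell stage, which is 2 days older than the cap stage as the cultures are, Cap-B+2D was 1.87-fold lower (log2 change -0.90, SE 0.035, adjusted p = 5.15e-21, edgeR). Cap-L+2D was 1.38-fold lower than Bell-L, under the fold limit (edgeR adjusted p = 3.81e-08), and was called lower without TMM scaling (-0.57). Ranked over all 8 groups by mean, Msx1 was highest in Cap-W, whose libraries overlapped those of Cap-B, and lowest in Cap-B+2D. The groups fell into cap, bell, Cap-L+2D and Cap-B+2D in that order, with overlap between neighbors inside the cap and bell sets and none between the sets.

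Msx2 (ENSMUSG00000021469, chromosome 13, 53620920 to 53627110 on the minus strand), the paralog of Msx1 that is active in both epithelium and mesenchyme of the later germ, showed the widest range of the 10 members over the groups, 11.0-fold between the highest and lowest group mean. It stood at 2.79, 2.06 and 2.54 normalized CPM in Cap-L and at 10.3, 10.5 and 10.4 in Cap-L+2D. Buccal libraries held 1.76, 1.46 and 1.79 in Cap-B and 1.62, 1.22 and 1.52 in Cap-B+2D. The cultured lingual libraries lay above all cap libraries of the parts, whereas the cultured buccal libraries overlapped the uncultured ones. Msx2 rose 4.28-fold on the lingual side (log2 change 2.10, SE 0.11, adjusted p = 5.14e-15), and in the buccal part the log2 fold change was -0.21 (95% interval -0.55 to 0.13, edgeR adjusted p = 0.304). The cultured sides differed 7.10-fold (log2 change -2.83, SE 0.12, adjusted p = 9.63e-17, edgeR), and the interaction of side with culture was -2.31 (95% interval -2.74 to -1.89, edgeR adjusted p = 5.76e-10).

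In the embryo Msx2 rose on both sides by the bell stage. Bell-L libraries held 15.9, 14.8 and 14.5 normalized CPM and Bell-B libraries 14.1, 14.9 and 14.4, and the sides overlapped. The rise from cap to bell was 6.21-fold on the lingual side (log2 change 2.63, SE 0.10, adjusted p = 5.49e-17) and 8.57-fold on the buccal side (log2 change 3.10, SE 0.11, adjusted p = 2.2e-21, edgeR). Cultured lingual mesenchyme reached a level 1.45-fold under Bell-L (log2 change -0.54, SE 0.079, adjusted p = 2.2e-06, edgeR, but adjusted p = 0.0581 with all 24 libraries in 1 fit), and cultured buccal mesenchyme stayed 9.90-fold under Bell-B (log2 change -3.31, SE 0.11, adjusted p = 2.72e-23, edgeR). In undivided mesenchyme the libraries were 2.28, 6.39 and 4.07 at the cap and 10.0, 16.4 and 21.7 at the bell stage (edgeR log2 fold change 1.88, adjusted p = 0.0209), a call that was lost without Cap-W replicate 3 (adjusted p = 0.0793), Bell-W replicate 2 (0.0702) or Bell-W replicate 3 (0.0573).

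Msx2 moved alongside marker lists of other cells in some groups and apart from them in others. Epithelium markers summed to 305 to 335 normalized CPM in Cap-L+2D and to 308 to 322 in Cap-B, overlapping ranges, while Msx2 was 10.3 to 10.5 in the former and 1.46 to 1.79 in the latter. In Cap-B+2D both were low. Single markers of the list did not all follow the sum. Mean Shh was 0.237 normalized CPM in Cap-L, 1.41 in Cap-L+2D, 0.0948 in Cap-B and 0 in Cap-B+2D. At the bell stage it was 13.9 in Bell-L and 10.6 in Bell-B, so that Shh was higher in groups where Msx2 was higher. Shh was the 1 marker of the 8 called higher in the lingual culture, where 5 were called lower. Osteoblast markers summed to 2092 to 2116 in Cap-L+2D and to 434 to 460.3 in Bell-L, while Msx2 was 10.3 to 10.5 and 14.5 to 15.9. The share of Msx2 that came from either kind of cell was not tested.

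Per kilobase of exon, Msx1 exceeded Msx2 in every library, by a ratio that ranged widely over the groups. Msx1 was 202 ± 52.4 (SD, n = 3) times as high as Msx2 in Cap-L and 308 ± 29.7 times in Cap-B. After culture the ratio was 27.3 ± 0.788 in Cap-L+2D, within the range of the bell libraries of the parts, 24.5 to 29.5, and 155 ± 24.5 in Cap-B+2D. The ratio in the cultured buccal libraries, 132 to 181, overlapped that of Cap-L and lay below that of Cap-B.

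Pax9 (ENSMUSG00000001497, chromosome 12, 56738552 to 56759607 on the plus strand), the paired-box partner of Msx1, lay above the lingual level on the buccal side at every time and did not pass the call rule in either culture. It was 264, 264 and 274 normalized CPM in Cap-L and 409.7, 408 and 411 in Cap-B. The cultured libraries held 251, 249.9 and 255 in Cap-L+2D and 333, 333 and 335 in Cap-B+2D. At every time the buccal libraries lay above all lingual ones. The culture changes were -0.08 (edgeR adjusted p = 0.0833) and -0.32 (edgeR adjusted p = 7.2e-11) on the log2 scale. The buccal excess was 1.56-fold at the cap stage (log2 change 0.64, SE 0.042, adjusted p = 5.75e-10), 1.43-fold at the bell stage (log2 change 0.51, SE 0.031, adjusted p = 1.48e-17) and 1.32-fold after culture (log2 change 0.40, SE 0.035, adjusted p = 3.45e-10, edgeR), the last under the fold limit. The bell difference was 0.493 without Bell-B replicate 2, just under the limit. Of its exon bases, 3.74% are shared with Slc25a21 on the other strand, and pairs that overlapped both genes were not counted.

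Barx1 (ENSMUSG00000021381, chromosome 13, 48816474 to 48819983 on the plus strand), the homeobox gene of the molar field, rose from cap to bell on both sides in the embryo, and neither culture reached the bell level. It was 86.4, 97.4 and 83.3 normalized CPM in Cap-L and 151, 138 and 155 in Bell-L (log2 change 0.74, SE 0.055, adjusted p = 2.51e-11). In the buccal part it was 121, 126 and 124 in Cap-B and 211, 204 and 215 in Bell-B (log2 change 0.75, SE 0.035, adjusted p = 1.04e-18, edgeR). The bell libraries lay above all cap libraries of the same side, and the buccal libraries above the lingual ones at both stages. After culture Cap-L+2D held 109.5, 109.8 and 102 and Cap-B+2D 102, 96.7 and 99.3, which overlapped.

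The culture changes of Barx1 had opposite signs, 0.27 on the lingual side and -0.33 in the buccal part on the log2 scale (edgeR adjusted p = 0.000134 and 8.8e-10), both under the fold limit. Their difference passed (interaction -0.61, 95% interval -0.75 to -0.47, edgeR adjusted p = 3.31e-08). Against the bell stage, Cap-B+2D was 2.12-fold lower than Bell-B (log2 change -1.09, SE 0.034, adjusted p = 1.78e-23, edgeR), and Cap-L+2D was 1.39-fold lower than Bell-L, under the fold limit. The latter was called without TMM scaling (-0.58) and without Bell-L replicate 2 (-0.52). The buccal-over-lingual difference lay at the fold limit, 0.495 at the cap and 0.504 at the bell stage, and was called at the bell stage alone; with all 24 libraries in 1 fit that call was lost (edgeR adjusted p = 0.101), as it was without Bell-L replicate 2 or Bell-B replicate 3 (0.45 and 0.48), and without Cap-L replicate 2 or Cap-B replicate 1 the cap difference was called (0.56 and 0.51). In Cap-W, replicate 1 held 279 normalized CPM and the other libraries 119 and 127, and without replicate 1 Barx1 was called higher in Bell-W (log2 fold change 0.70, edgeR adjusted p = 0.0273) where with it the value was 0.22 (adjusted p = 0.693).

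The LIM homeobox genes Lhx6 (ENSMUSG00000026890, chromosome 2, 35971965 to 35995420 on the minus strand) and Lhx8 (ENSMUSG00000096225, chromosome 3, 154011931 to 154036296 on the minus strand), both markers of oral first-arch mesenchyme, had lower levels in both cultures than at the cap stage, called on both sides for Lhx6 and in the lingual part for Lhx8. Lhx6 was 293, 297 and 304 normalized CPM in Cap-L and 194, 199 and 191 in Cap-L+2D (log2 change -0.61, SE 0.040, adjusted p = 1.08e-12). Lhx6 in the buccal part was 334, 331 and 339 in Cap-B and 231, 231 and 239 in Cap-B+2D (log2 change -0.54, SE 0.031, adjusted p = 1.99e-16, edgeR). The cultured libraries lay below all uncultured ones on each side, and the buccal libraries above the lingual ones at each time. The falls of Lhx6 on the sides did not differ by the test, with an interaction of 0.06 on the log2 scale (95% interval -0.04 to 0.17, edgeR adjusted p = 0.406). Its exons share 2.16% of their bases with the gene model Gm56460.

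Lhx8 had the largest buccal excess of the 10 members at the cap stage and after culture. It was 219, 225 and 222 normalized CPM in Cap-L and 404, 408 and 405 in Cap-B, a 1.86-fold difference (log2 change 0.89, SE 0.041, adjusted p = 3.51e-12, edgeR). After culture it was 145, 139.6 and 138 in Cap-L+2D and 304, 315 and 314 in Cap-B+2D, 2.19-fold apart (log2 change 1.13, SE 0.037, adjusted p = 8.95e-19, edgeR). At the bell stage it was 167, 166 and 171 in Bell-L and 218, 220.2 and 219 in Bell-B, 1.31-fold apart, under the fold limit (edgeR adjusted p = 8.18e-14). The buccal libraries lay above all lingual ones at each time, the gap being widest after culture and narrowest at the bell stage. Compared with the gap at the cap stage, the gap after culture was wider by 0.24 (95% interval 0.13 to 0.34, adjusted p = 0.0008) and the interaction of side with stage was -0.51 (95% interval -0.61 to -0.42, adjusted p = 1.76e-09, edgeR).

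On the buccal side Lhx8 fell 1.86-fold from cap to bell (log2 change -0.90, SE 0.031, adjusted p = 4.27e-22, edgeR), while its log2 fold change over 2 days of culture was -0.40, under the fold limit. Cap-B+2D thus lay above Bell-B in every library, at a log2 fold change of 0.49 that fell just short of the fold limit and passed it with RLE scaling (0.51), DESeq2 (0.51) or without Cap-B+2D replicate 1 (0.51). On the lingual side, Cap-L+2D was 1.57-fold below Cap-L (log2 change -0.65, SE 0.041, adjusted p = 3.84e-13, edgeR) and below Bell-L in every library. Per kilobase of exon, Lhx6 was 0.435 ± 0.00739 (SD, n = 3) times Lhx8 in Cap-B and 0.396 ± 0.00809 times in Cap-B+2D, against 0.689 ± 0.00950 in Bell-B and 0.707 ± 0.0121 in Cap-L.

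Pitx1 (ENSMUSG00000021506, chromosome 13, 55972864 to 55984005 on the minus strand), a paired-like homeobox gene of the mandibular arch, fell from cap to bell in the embryo and did not pass the call rule in either culture. It was 281, 329 and 272 normalized CPM in Cap-L, 326, 315 and 323 in Cap-L+2D and 176, 159 and 177 in Bell-L. In the buccal part it was 263, 257 and 263 in Cap-B, 193, 205 and 224 in Cap-B+2D and 119.5, 118 and 135 in Bell-B. On the lingual side the cultured libraries overlapped the cap ones and lay above all bell ones, and on the buccal side they lay between the stages without overlap. The fall to the bell stage was 1.71-fold on the lingual side (log2 change -0.78, SE 0.056, adjusted p = 1.89e-11) and 2.11-fold on the buccal side (log2 change -1.08, SE 0.046, adjusted p = 1.23e-19, edgeR). The log2 fold change of Pitx1 in culture was 0.14 in the lingual part, a sign that turned without TMM scaling (-0.02), and -0.35 in the buccal part, both under the fold limit.

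Pitx1 was higher in both cultures than at the bell stage, 1.88-fold on the lingual side (log2 change 0.91, SE 0.057, adjusted p = 4.78e-13) and 1.66-fold on the buccal side (log2 change 0.73, SE 0.045, adjusted p = 1.47e-15, edgeR). Between the cultured sides it was 1.56-fold lower in the buccal part (log2 change -0.64, SE 0.044, adjusted p = 3.29e-12, edgeR). Undivided mesenchyme of the bell stage held 44.3, 45.9 and 99.3, below both parts of that stage, with replicate 3 apart from the others. That library was also the one with the highest epithelium marker sum of Bell-W, whose part in the difference was not tested. The fall from Cap-W to Bell-W was 3.58-fold (log2 change -1.84, SE 0.33, adjusted p = 0.00861, edgeR) and stayed called when any 1 of the 6 libraries was left out, with adjusted p from 0.00129 to 0.0408. Its exons share 10.3% of their bases with the gene models Gm28760 and Gm47071, whose shared pairs were not counted.

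The general mesenchyme factors Prrx1 (ENSMUSG00000026586, chromosome 1, 163072688 to 163141279 on the minus strand), Prrx2 (ENSMUSG00000039476, chromosome 2, 30724984 to 30771263 on the plus strand) and Twist1 (ENSMUSG00000035799, chromosome 12, 34007670 to 34009828 on the plus strand) ended lower in the buccal than in the lingual culture. Prrx1 was 1136, 1164 and 1105 normalized CPM in Cap-L+2D and 704, 682 and 663 in Cap-B+2D (log2 change -0.74, SE 0.036, adjusted p = 3.32e-15). Prrx2 was 128, 121 and 130.1 in Cap-L+2D and 74.1, 79.6 and 83.2 in Cap-B+2D (log2 change -0.69, SE 0.045, adjusted p = 1.03e-12). Twist1 was 236, 230.1 and 219 in Cap-L+2D and 152, 151 and 151 in Cap-B+2D (log2 change -0.60, SE 0.038, adjusted p = 6.96e-13, edgeR). For each of the 3 genes the lingual cultures lay above all buccal ones. The muscle markers given above ran the other way between these groups, and their part in the difference was not tested.

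At the cap stage these side differences were smaller or had the other sign, and the shift passed for each. Prrx1 was 1307, 1197 and 1281 in Cap-L and 917, 933 and 927 in Cap-B, a log2 difference of -0.42 that stayed under the fold limit. Prrx2 was 93.9 to 105 in Cap-L and 78.7 to 86.6 in Cap-B. Twist1 was 182, 201 and 177 in Cap-L and 208, 206 and 205 in Cap-B, so that its difference had the other sign, 0.17 (edgeR adjusted p = 0.00812). The interaction of side with culture was -0.32 for Prrx1 (adjusted p = 4.48e-05), -0.46 for Prrx2 (adjusted p = 6.14e-06) and -0.77 for Twist1 (adjusted p = 2.95e-11, edgeR). Twist1, the basic helix-loop-helix factor that keeps neural crest cells mesenchymal, had a log2 fold change of 0.30 in the lingual and -0.47 in the buccal culture, both under the fold limit.

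In the embryo Prrx1 fell from cap to bell on both sides, to 819, 881 and 868 in Bell-L (log2 change -0.55, SE 0.046, adjusted p = 2.13e-10) and 562, 598 and 564 in Bell-B (log2 change -0.70, SE 0.032, adjusted p = 1.21e-18, edgeR). Twist1 fell on the buccal side, to 139.5, 137 and 139 (log2 change -0.58, SE 0.032, adjusted p = 9.88e-17, edgeR), and was 156, 153 and 160.4 in Bell-L, a log2 change of -0.25 that lay under the fold limit. The stage changes of Twist1 differed between the sides (interaction of side with stage -0.35, edgeR adjusted p = 2.31e-05), though not with all 24 libraries in 1 fit (adjusted p = 0.188). Prrx2 was 85.4 to 91.7 in Bell-L and 83.1 to 90.6 in Bell-B. The lingual culture lay above Bell-L for all 3 genes in every library, called for Prrx2 (log2 change 0.52, SE 0.049, adjusted p = 1.03e-09) and Twist1 (log2 change 0.54, SE 0.048, adjusted p = 3.71e-10, edgeR) and under the fold limit for Prrx1 (0.41). Without TMM scaling the Prrx2 and Twist1 values were 0.41 and 0.43, and without Bell-L replicate 2 that of Prrx2 was 0.499, all under the limit.

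**Figure D3:**
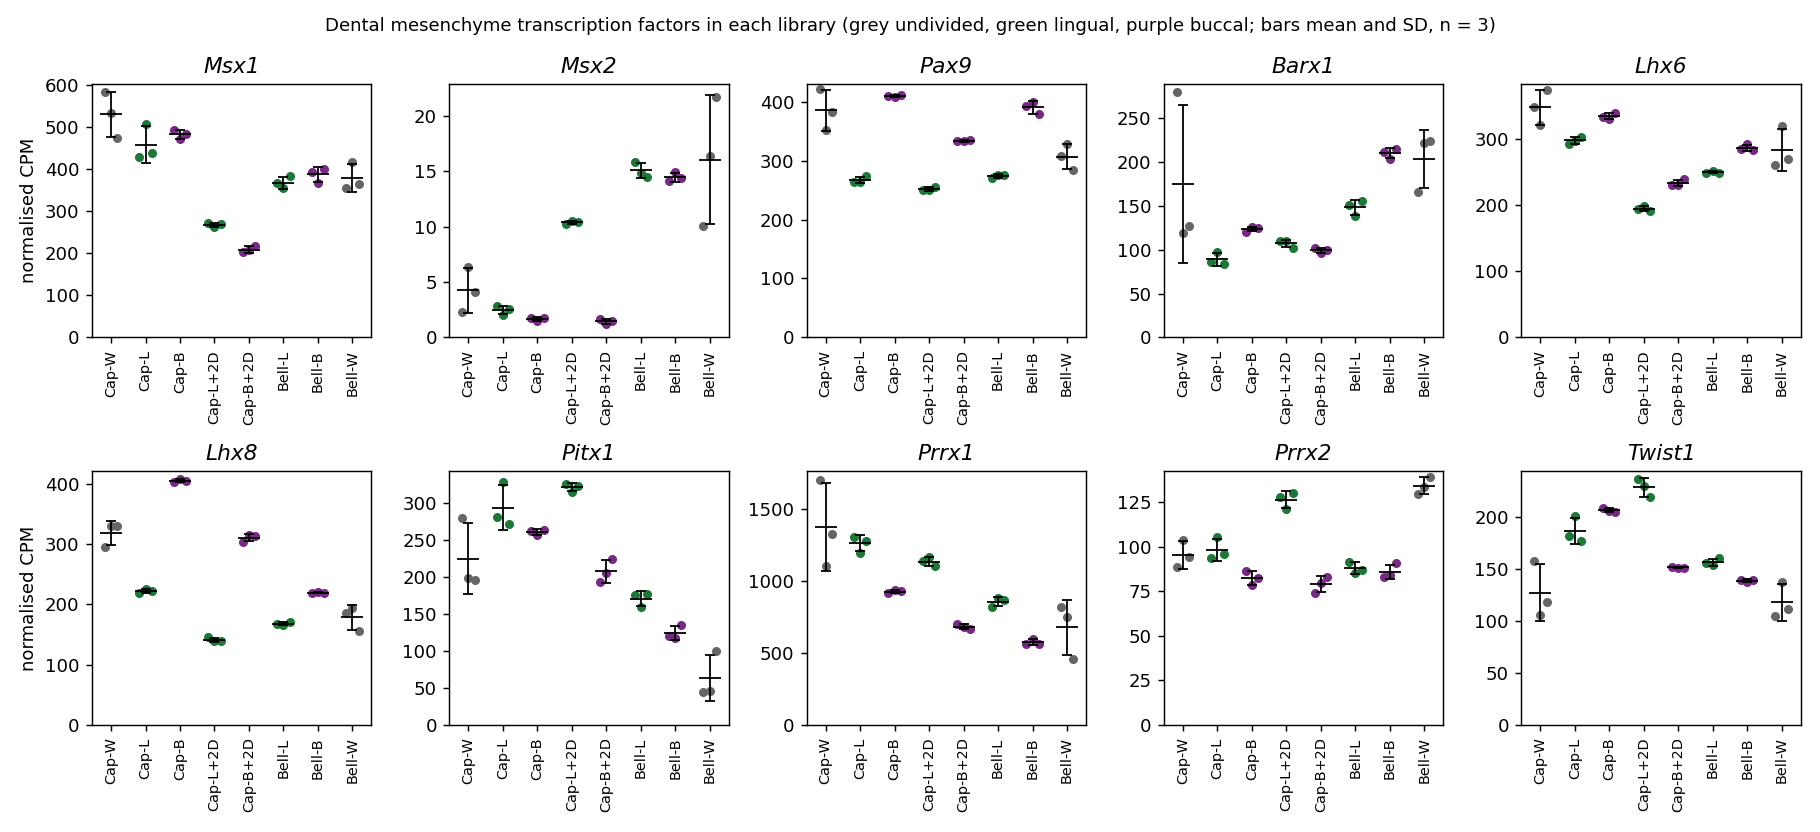
Normalized CPM of the 10 members in each library, 1 panel a gene with its axis from 0; points are libraries (grey undivided, green lingual, purple buccal) and bars the mean and SD of 3. Msx2 is low in Cap-B+2D, at 1.22 to 1.62, while Cap-L+2D is at 10.3 to 10.5, and Pax9 and Lhx8 are higher in each buccal group than in its lingual counterpart.

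Between the sides, Pax9, Lhx6 and Lhx8 had higher levels on the buccal side and Prrx1 and Pitx1 on the lingual side at each time, and 5 members were lower in the buccal part after culture. At the cap stage 2 members, Pax9 and Lhx8, were called higher in the buccal part, against 10.4% of all genes tested, and 1, Msx2, lower, against 7.1% (edgeR). The Msx2 call rested on levels of 1.46 to 2.79 normalized CPM and was lost with DESeq2, with all 24 libraries in 1 fit and without Cap-L replicate 1, Cap-L replicate 3 or Cap-B replicate 2, with adjusted p from 0.0517 to 0.216. At the bell stage 2, Pax9 and Barx1, were called higher in the buccal part, against 6% of all genes, and 1, Prrx1, lower, against 6.88%. Pitx1 was also called lower there without Bell-L replicate 2 (-0.50) or Bell-B replicate 3 (-0.52). After culture 1, Lhx8, was called higher in the buccal part, against 12.5%, and 5, Msx2, Pitx1, Prrx1, Prrx2 and Twist1, lower, against 12.5%. The median log2 fold change of the members, buccal over lingual, was 0.13 at the cap stage, 0.02 at the bell stage and -0.48 after culture, where the medians of all genes lay between -0.00556 and 0.000908.

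**Figure D4:**
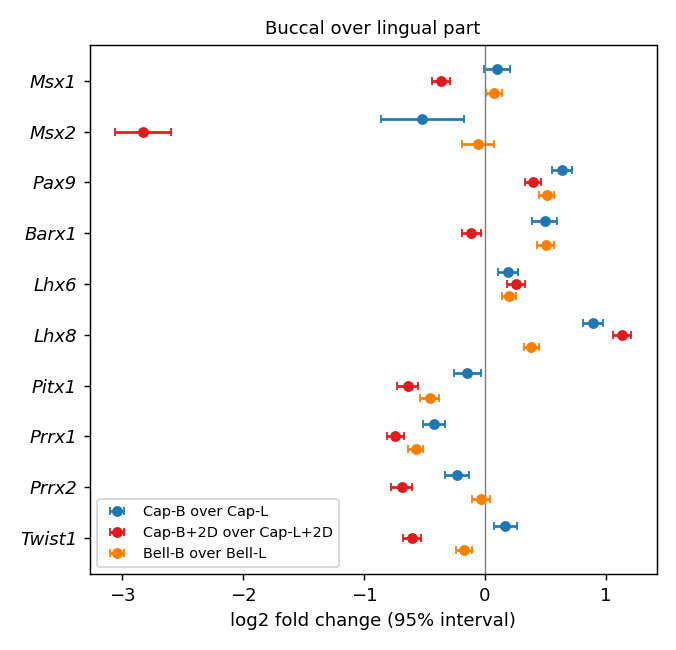
Log2 fold changes of the 10 members, buccal over lingual part, with 95% intervals, at the cap stage (blue), after 2 days of culture (red) and at the bell stage (orange). The red points lie left of the blue ones for all members but Lhx6 and Lhx8, and the red Msx2 point lies at -2.83.

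From cap to bell in the embryo, 2 members, Msx2 and Barx1, were called higher in the lingual part, against 14.2% of all genes tested, and 2, Pitx1 and Prrx1, lower, against 5.78% (edgeR). In the buccal part Msx2 and Barx1 were again the 2 called higher, against 12%, and 4, Lhx8, Pitx1, Prrx1 and Twist1, were called lower, against 6.73%. In undivided mesenchyme 1 member, Msx2, was called higher, against 10.3%, and 3, Lhx8, Pitx1 and Prrx1, lower, against 4.21%, and leaving out 1 library gave from 2 calls, without Cap-W replicate 3 or Bell-W replicate 2, to 5. The difference of the sides shifted with stage toward the buccal side for 2 members, Msx2 and Prrx2, where 14.5% of all genes did at an adjusted p under 0.05, and toward the lingual side for 5, Pax9, Lhx8, Pitx1, Prrx1 and Twist1, where 18% did. Of these shifts, those of Msx2, Pax9 and Prrx1 had adjusted p values of 0.0452, 0.0449 and 0.0416, and only 3 or 4 members passed without any 1 Cap-B library, without Bell-L replicate 2 or 3, or without Bell-B replicate 1 or 3. With all 24 libraries in 1 fit Lhx8 alone passed.

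The undivided libraries did not sit between the parts for every member. At the bell stage Pitx1 was lower in all Bell-W libraries than in any library of the parts, and at the cap stage Twist1 was lower in all Cap-W libraries, at 106 to 158 normalized CPM, than in any library of Cap-L or Cap-B. Prrx2 was 129.7, 134 and 139 in Bell-W, above all libraries of Bell-L and Bell-B. Prrx1 was 1702, 1101 and 1323 in Cap-W and 819, 752 and 460.4 in Bell-W (log2 change -1.03, SE 0.25, adjusted p = 0.0293, edgeR), a call that was lost without Cap-W replicate 1, Cap-W replicate 3 or Bell-W replicate 2. Lhx8 was 295, 329 and 330.5 in Cap-W and 186, 194 and 155 in Bell-W (log2 change -0.85, SE 0.13, adjusted p = 0.00418, edgeR), without overlap. Pax9 was 352 to 422 in Cap-W and 285 to 328 in Bell-W, and Lhx6 was 321 to 374 and 261 to 319, with no call for either. The summed mesenchyme markers of the undivided libraries, given above, were also the lowest of their stage. At the bell stage the parts held 18467 to 19343 in Bell-L and 18842 to 19483 in Bell-B.

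The cultures were also set against the bell stage of the same side. Cap-L+2D held 3 members called higher than Bell-L, Pitx1, Prrx2 and Twist1, against 14.4% of all genes tested, and 1 called lower, Msx2, against 16.8% (edgeR). Without TMM scaling the tally turned to 1 called higher, Pitx1, and 3 called lower, Msx1, Msx2 and Barx1, and with all 24 libraries in 1 fit Msx2 was not called (adjusted p = 0.0581). Among all genes, 2451 were called higher and 4534 lower without TMM scaling, against 3095 and 3591 with it. Cap-B+2D held 1 called higher than Bell-B, Pitx1, against 15.5%, and 3 called lower, Msx1, Msx2 and Barx1, against 16.3%. These comparisons share the cultured libraries with the comparisons of culture with the cap stage, so their values are given side by side and not as separate support.

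Levels were compared between genes per kilobase of exon. In Cap-L the order of the means was Msx1 at 148 ± 14.2 (SD, n = 3) normalized CPM per kilobase, Twist1 at 115 ± 7.81, Prrx1 at 114 ± 5.18, Pitx1 at 111 ± 11.5 and Lhx8 at 87.7 ± 1.08, of which Twist1, Prrx1 and Pitx1 lay within their spread. In Cap-L+2D Twist1, at 140.3 ± 5.46, Pitx1, at 121 ± 2.08, and Prrx1, at 103 ± 2.65, were above Msx1, at 86.5 ± 1.58. In Cap-B Lhx8, at 160.1 ± 0.866, and Msx1, at 156 ± 3.24, led the others. In Cap-B+2D Lhx8 led at 123 ± 2.46, and Twist1, at 93.0 ± 0.532, and Pitx1, at 78.1 ± 5.91, were also above Msx1, at 67.5 ± 2.46. Barx1, at 71.1 ± 2.06, overlapped Msx1 there. Msx1, the first of the 10 in Cap-L, was thus below other members in both cultures.

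The other genes of the mesenchyme programme were counted by lists. Of 20 further transcription factors of dental mesenchyme, all tested, 11 fell and 1 rose in the lingual culture (median log2 fold change -0.55 over the list), with the largest changes in Tfap2b at -1.36, the Wnt effector Lef1 at -1.14, Dlx6 at -0.999 and Dlx1 at -0.95. In the buccal culture 11 fell and 2 rose (median -0.59), with the largest changes in Meox2 at -2.31, Dlx5 at -1.14, Tfap2b at -1.03 and the bone and tooth factor Runx2 at -0.99. Of all genes tested, 15.9% fell and 19.6% rose in the lingual culture, and 16.6% and 17.9% in the buccal one. Between the cultured sides 13 were lower and 3 higher in the buccal part, where at the cap stage 9 were lower and 4 higher. The shares of all genes were 12.5% lower and 12.5% higher after culture, and 7.1% and 10.4% at the cap stage. Among the largest differences between the cultured sides were those of Hand2 at -3.93, Foxf1 at -2.74 and Foxf2 at -2.64, all lower in the buccal part. These differences were present before culture, at -4.04, -3.12 and -1.61 at the cap stage. From cap to bell 9 fell and 3 rose in the lingual part, and 4 fell and 4 rose in the buccal part. The shares of all genes were 5.78% and 14.2% in the lingual part, and 6.73% and 12% in the buccal part.

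Among 10 signals and targets linked to Msx1 and Pax9, Bmp4 rose where Msx1 fell, by 0.62 in the lingual culture and by 0.60 in the buccal one (log2 fold changes, called by edgeR). In the embryo Bmp4 rose by 0.52 from cap to bell on the lingual side and by 0.72 in the buccal part, so that each culture lay within the fold limit of the bell stage of its side (0.10 and -0.12). In the lingual culture 3 rose, Dkk2 at 0.75 and Sfrp2 at 0.66 besides Bmp4, and 1 fell, the activin subunit Inhba at -0.83. In the buccal culture 2 rose, Bmp4 and the matrix gene Tnc at 0.70, and 3 fell, Fgf3 at -2.23, Inhba at -1.55 and the hedgehog receptor Ptch1 at -0.51. Among all genes tested, 19.6% rose and 15.9% fell in the lingual culture, and 17.9% and 16.6% in the buccal one. Ptch1, itself a target of hedgehog signaling, was 360.2 ± 4.00 (SD, n = 3) normalized CPM in Cap-L+2D, 596 ± 5.67 in Bell-L, 568 ± 0.558 in Bell-B and 97.1 ± 2.87 in Cap-B+2D.

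Of 12 paralogs of the members, 6 passed the filter on low counts in the lingual and 7 in the buccal fit, and Msx3 was at or under the floor in all 24 libraries. Between the cultured sides 5 of 7 tested paralogs were higher in the buccal part, led by Pitx3 at 3.70, Lhx9 at 3.37, Lhx2 at 2.31 and Barx2 at 1.88, and the other 2 were not called, where 12.5% of all genes were called higher. Their levels were low, with ranges over all libraries of 0.106 to 18.5 normalized CPM for Pitx3 and 0 to 8.27 for Lhx9. Lhx2 ranged from 0.166 to 2.03 and Barx2 from 1.03 to 13.5. A low gene could pass the filter through the group where it was high, so these counts only describe the paralogs tested. At the cap stage 5 of 7 were higher in the buccal part and 2 lower, where 10.4% and 7.1% of all genes were. In the buccal culture 5 rose and 1 fell, where none of the 10 members was called higher, and in the lingual culture 2 rose and 2 fell. The shares of all genes were 17.9% and 16.6% in the buccal culture, and 19.6% and 15.9% in the lingual one.

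Genes with the most similar pattern were sought for the 6 members whose group means spanned over 1 log2 unit, by the root-mean-square difference of group means over the 8 groups, each gene centered on its own mean, among 14046 genes. This is a description over 8 group means and says nothing of shared function. For Prrx1 they were Gli2 at 0.0919, Adgrl2 at 0.138 and Bmp6 at 0.147. For Msx1 they were Zfp940 at 0.104, Cep135 at 0.109 and Ccdc85c at 0.119, and for Lhx8 AI606473 at 0.168, Gm5815 at 0.176 and Tmem131l at 0.179. For Barx1 they were Ralgps2 at 0.164, Diaph3 at 0.225 and Arpin at 0.227. Msx2 had less close neighbors, Sostdc1 at 0.385, Plppr1 at 0.407 and Dlx3 at 0.425, as did Pitx1, with Mn1 at 0.273, Lgr5 at 0.343 and Lrrtm1 at 0.351. None of these genes is another of the 10 members. The nearest member lay at 0.235 for Msx1, Lhx6, and at 1.11 for Msx2, Barx1.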

How the data were processed

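The authors deposited 1 table of read counts per gene for the 24 libraries, which its header records as whole numbers made with featureCounts 2.0.0 on paired reads, by exon and gene identifier, against Ensembl 107 (GRCm39) without using strand, so that pairs that overlapped 2 genes or mapped to several places were left out. The submitters' processing notes name Trimmomatic 0.39, FastQC 0.12.1, Bowtie 1.2.3, Subread 2.0.3 and DESeq2 1.40.2, whereas the study's methods name a different trimmer and aligner and a different library kit from the labels; which was used for this table is not settled in the sources used here. Depth was 20581720 to 39266497 counted pairs per library, and 3 counts came to 0.0764 to 0.146 CPM. The floor covers counting error only.

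Counts were tested as deposited with edgeR 4.0.16 (quasi-likelihood, TMM factors, filterByExpr) in R 4.3.3, with Benjamini-Hochberg adjustment over all genes tested and no covariate. Before this, each kind of fit, though not each fit, was tried on simulated data. Those tried were side at the cap stage, stage in undivided mesenchyme, culture in the lingual part and the interaction of side with culture. Comparisons of side used the 6 libraries compared, comparisons of stage or culture within a side used its 9 libraries, and interactions used 12. A gene was called at an adjusted p under 0.05 with an absolute log2 fold change over 0.5, and an interaction at an adjusted p under 0.05. A single value of 3 against 3 libraries cannot reach an exact permutation p below 0.10. The 10 members are named in every comparison, and of each list up to 4 called genes with the largest changes. Bmp4 and Ptch1 were also named outside this rule, after their values were seen, and some genes that the rule would name are not reported here. The members and lists were chosen with earlier results of these data known. Promoter windows came from GENCODE M39. Alternatives were RLE factors, no TMM factor, no filter, DESeq2 1.42.0, a replicate block, other sets of libraries, other fold limits and leaving out each library. Intervals of 95% are normal approximations from the standard error and so somewhat narrow at these sample sizes. Columns of identifiers, positions and lengths served only as annotation.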

Additional observations from a re-analysis of the deposited data

Results flagged for a closer look

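For 9 members the buccal-over-lingual difference after culture differed from that at the cap stage in a test of the interaction (edgeR's quasi-likelihood test, adjusted over all genes). The interaction, on the log2 scale, was -0.47 for Msx1, -2.31 for Msx2, -0.25 for Pax9, -0.61 for Barx1 and -0.49 for Pitx1. It was -0.32 for Prrx1, -0.46 for Prrx2 and -0.77 for Twist1, and Lhx8 alone of the 9 had a positive value, 0.24. The buccal cultures were also the libraries with the highest muscle and the lowest epithelium marker sums, and the part of these in the interactions was not tested.

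For 7 members the difference of the sides at the bell stage differed from that at the cap stage in the same kind of test. The interaction was 0.45 for Msx2 and 0.19 for Prrx2. It was -0.13 for Pax9, -0.51 for Lhx8, -0.32 for Pitx1, -0.16 for Prrx1 and -0.35 for Twist1. Both sets of values share the Cap-L and Cap-B libraries.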

How the results depend on the processing

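Of 1620 values of members under an alternative, 1516 kept their direction and their side of the threshold, 70 lost the call, 20 gained one and 14 changed sign. Of 120 member values, 86 kept both under all their alternatives. With no fold limit the counts of members called were 9 for the sides at the cap stage, 7 at the bell stage, 10 after culture, 9 for culture and 9 for stage in the lingual part, 8 for culture in the buccal part and 10 for either culture against the bell stage. The shares of all genes that passed in the same order were 42.3%, 37.0%, 54.6%, 65.9%, 50.1%, 67.2%, and 61.3% (lingual) and 65.7% (buccal). At a log2 fold change over 1 the counts of members were 0 for the sides at the cap and 0 at the bell stage, 2 after culture, 1 for culture and 1 for stage in the lingual part, 1 for culture and 2 for stage in the buccal part, and 0 (lingual) and 2 (buccal) for culture against the bell stage. Shares of all genes at that limit are not reported here, so these counts cannot be set against them. In the order of the alternatives, total counts without TMM gave 4 for buccal culture, all lower, where 4392 of all genes were called lower, against 3651 in the main fit. All 24 libraries in 1 fit gave 5 for the interaction of side with culture and 1 for that of side with stage. Leaving out 1 library gave 2 to 5 calls in undivided mesenchyme and 3 to 6 for the interaction of side with stage.

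Values that changed sign were not called in the alternative. Pitx1 in lingual culture was -0.016 without TMM. For the interaction of side with stage, Msx1 was 0.019 without TMM and 0.0071 without the filter, and leaving out 1 library gave -0.097 to 0.028 for Msx1, -0.053 to 0.063 for Barx1 and -0.015 to 0.024 for Lhx6. Twist1 in undivided mesenchyme was -0.24 to 0.043. The cause of these changes was not tested. Removing TMM shifted the median of all genes by -0.15 in lingual culture and by -0.11 against the lingual bell stage. It also moved the share of calls that were higher from 55.3% to 40.4% and from 46.3% to 35.1% there, and from 45.0% to 59.0% and 44.6% to 55.4% in the interactions of side with culture and with stage.

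The replicate numbers of the labels were not used to pair the libraries in the main fits. The mean correlation of same-numbered deviations was at most 0.069, in undivided mesenchyme, against -0.034 there for differently numbered libraries. With 3 libraries in a group, this cannot show whether same-numbered libraries share animals. With a replicate block the count for the interaction of side with stage was 4, and no other count of members moved. Msx2, with 35 read pairs in its lowest library, is the member whose precision depth limits most.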
